A study of Mus musculus with 12 samples.

Results

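A set of 10 transcription factors that drive the effector programme of CD8 T cells were followed: Tbx21, Eomes, Prdm1, Id2, Zeb2, Irf4, Batf, Runx3, Bhlhe40 and Nfil3. They were chosen by symbol, as the 10 of 55487 gene identifiers in each count table that match these names in GENCODE M21, and each of them passed the low-count filter in both tables. RNA was sequenced from 12 samples of OT-1 CD8+ T cells, which are mouse T cells that carry a transgenic T cell receptor for an ovalbumin peptide. Female and Male were 3 samples each of splenic cells of that sex, activated for 3 days with beads against CD3 and CD28 and recombinant mouse IL2. WT and KD were 3 samples each from a separate batch of male cells that were electroporated and then cultured for 3 days. KD received Cas9 with guide RNA aimed at Kdm5d, a Y-linked histone demethylase gene, and WT received guide RNA without Cas9. In the KD against WT comparison, Cas9 itself and lower Kdm5d cannot be told apart. The labels do not say whether replicates came from separate mice or cultures, so p-values measure only the spread between these samples, which may be technical. Strain details and age are not given in the labels.

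T cell receptor signals induce Irf4 and Batf, which bind DNA together and open the way for effector genes. The T-box factors T-bet (the product of Tbx21) and Eomes, together with Runx3, activate genes for cytotoxicity and cytokine receptors, while Blimp-1 (the product of Prdm1), Id2 and Zeb2 support terminal effector differentiation by repressing or blocking factors that keep T cells naive or memory-like. Bhlhe40 and Nfil3 are basic-region repressors that are induced by activation and cytokines.

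Promoter sequence was read from RefSeq (GRCm38.p6) as the 250 bases before an annotated start, and 9 of the 10 genes matched, with 13 windows in all. The windows below belong to Eomes, the member with the largest difference between Male and Female, to Irf4, the one with the largest difference between KD and WT, to Runx3, which was lower in Male and in KD, and to Prdm1, which moved in opposite directions. Capitals mark an interferon element (a pair of GAAA repeats with 2 bases between) in Eomes, Runx elements (TGTGGT) in Runx3 and an AP-1 element (TGANTCA) in Prdm1. Motifs were read on both strands, and the Runx elements of Runx3 appear as their reverse complement.
Eomes, chr9:118477939-118478188, plus strand: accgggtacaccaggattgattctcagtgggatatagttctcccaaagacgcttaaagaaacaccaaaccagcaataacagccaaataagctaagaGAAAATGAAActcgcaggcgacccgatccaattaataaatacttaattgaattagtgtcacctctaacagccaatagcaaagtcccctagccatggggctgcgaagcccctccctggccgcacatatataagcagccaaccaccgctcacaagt
Irf4, chr13:30748983-30749232, plus strand: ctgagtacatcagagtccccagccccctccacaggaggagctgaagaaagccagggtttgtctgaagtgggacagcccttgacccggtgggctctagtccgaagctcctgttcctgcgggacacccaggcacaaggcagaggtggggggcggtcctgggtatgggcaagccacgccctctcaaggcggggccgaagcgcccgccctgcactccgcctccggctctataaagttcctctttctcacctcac
Runx3, chr4:135120395-135120644, plus strand: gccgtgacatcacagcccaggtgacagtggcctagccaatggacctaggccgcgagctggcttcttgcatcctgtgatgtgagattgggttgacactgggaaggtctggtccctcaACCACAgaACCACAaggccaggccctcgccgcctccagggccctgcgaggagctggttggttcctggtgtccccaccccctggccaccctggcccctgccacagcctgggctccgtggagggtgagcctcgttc
Prdm1, chr10:44458749-44458998, minus strand: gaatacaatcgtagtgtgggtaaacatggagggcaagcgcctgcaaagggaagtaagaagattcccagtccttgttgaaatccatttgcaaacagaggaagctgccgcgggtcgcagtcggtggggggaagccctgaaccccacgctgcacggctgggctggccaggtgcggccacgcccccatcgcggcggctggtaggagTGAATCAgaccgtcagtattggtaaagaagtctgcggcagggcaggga
The interferon element of Eomes began 154 bases before the start, and 2.98% of 32851 RefSeq windows of this length hold such a match. The pair of Runx elements began 134 and 126 bases before the first of the 2 Runx3 starts (14.0% of windows hold at least 1), and the AP-1 element began 48 bases before the Prdm1 start (6.75%). Batf also held Runx elements and Zeb2 AP-1 elements. A STAT element (TTCNNNGAA), found in 7.02% of windows, was present in 1 member, Zeb2. The E-box CACGTG (6.02%) and the T-box element GGTGTGA (3.33%) were present in 0. The shares are per window, while Zeb2 had 4 windows. Its STAT matches, in windows 2 and 3, are the same stretch, because those windows overlap. The Irf4 window held none of these 6 motifs. The window of the other Runx3 start, chr4:135152295-135152544, held 0 matches. A match describes letters in the window and nothing more. The Prdm1 start lies inside the gene's annotated extent.

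The libraries held between 78748647 and 110803318 counts. Mean Kdm5d levels were 50.9 CPM for both Male and WT, 22.0 for KD and 0.0071 for Female. CPM is the count scaled by edgeR to the library's TMM-adjusted total over tested genes. All 10 genes of the CD8 T cell list were detected in every group. Beside Cd8a and Cd8b1 the list holds general T cell genes, such as Trac and Cd247. Its summed level was 3834 to 3897 CPM in Female, 4035 to 4125 in Male, 5032 to 5101 in WT and 4552 to 4764 in KD. By the edgeR test used below (adjusted p under 0.05), 2 of the 10 were higher and 5 lower in Male (all genes: 23.5% and 26.3%). The 2 higher were Thy1 (686 to 1011 CPM) and Lck (517 to 619 CPM), while Cd8a, Cd8b1, Trac, Trbc2 and Cd247 were lower. In KD 0 were higher and 5 lower (all genes: 16.8% and 18.4%). The NK cell list, which matters because NK cells also use T-bet and Eomes, summed to 0.496 to 0.720 CPM in Female, 0.637 to 0.984 in Male, 2.21 to 2.40 in WT and 1.32 to 2.04 in KD, and its marker Klra8 was at 0 counts in Female, Male and WT. Of the CD4 T cell list, Cd4 had 14 to 19 counts in each Female library and 0 in Male. That list summed to 88.7 to 90.8 CPM in Female, 54.9 to 58.7 in Male, 45.0 to 47.3 in WT and 41.0 to 43.7 in KD, nearly all of it Zbtb7b. Foxp3 of the same list was higher in Male, from 2.82 to 4.38 CPM (log2 fold change 0.63). Its edgeR adjusted p was 0.021, and up to 0.0996 with 1 replicate left out. It was lower in KD, from 2.65 to 1.46 CPM (-0.86, edgeR adjusted p 0.0024). B cell markers summed to at most 6.49 CPM, with Ms4a1 at 0 in every group, and myeloid markers to at most 1.67. The erythroid sum was 0.590 to 0.813 CPM in Female, 0.610 to 1.37 in Male, 0.446 to 0.631 in WT and 0.788 to 0.967 in KD, with Hba-a1 and Hbb-bs at 0 throughout. The B cell sum was 5.40 to 6.49 CPM in WT and 4.00 to 5.23 in KD, and the dendritic sum 3.41 to 4.22 in Female, 2.50 to 3.19 in Male, 6.17 to 6.41 in WT and 4.13 to 4.93 in KD, with Siglech at 0 throughout. The stromal sum was 43.5 to 45.5 CPM in Female and 39.2 to 40.6 in Male. It was 35.7 to 37.8 CPM in WT and 29.6 to 32.4 in KD. Nearly all of it was Pecam1, with Cdh5 at 0. Col1a2 of the same list went the other way. Its mean was higher in Male, from 0.141 to 0.445 CPM (edgeR adjusted p 0.0039), and in KD, from 0.288 to 0.620 CPM (edgeR adjusted p 0.016). The CD8, CD4, dendritic and stromal sums did not overlap between the groups of either comparison, and the NK, B cell and erythroid sums did not between KD and WT. These sums moved with the comparisons, and their part in the results below was not tested. In bulk RNA, fewer cells of a type and less RNA per cell cannot be told apart.

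Levels of different genes were compared per length of exon. In Female, Runx3 was highest at 76.5 CPM per kb ± 1.04 (SD, n = 3), followed by Bhlhe40 at 49.6 and Irf4 at 36.1 CPM per kb. Nfil3 (21.3), Batf (16.1), Tbx21 (16.0), Id2 (12.3), Eomes (8.99) and Prdm1 (6.77) came next, and Zeb2 was last at 0.106 CPM per kb. All neighbours in this order had ranges that did not overlap, except Batf and Tbx21. In Male the order changed in the middle: Id2 stood behind Runx3 (59.5) and Bhlhe40 (49.4) at 31.9 CPM per kb and Eomes followed at 28.9, with Irf4 at 27.5 and Nfil3 at 25.7. Batf (17.3), Tbx21 (14.96), Prdm1 (3.89) and Zeb2 (0.0594) followed. The ranges of Eomes and Irf4, and of Irf4 and Nfil3, overlapped.

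**Figure D1:**
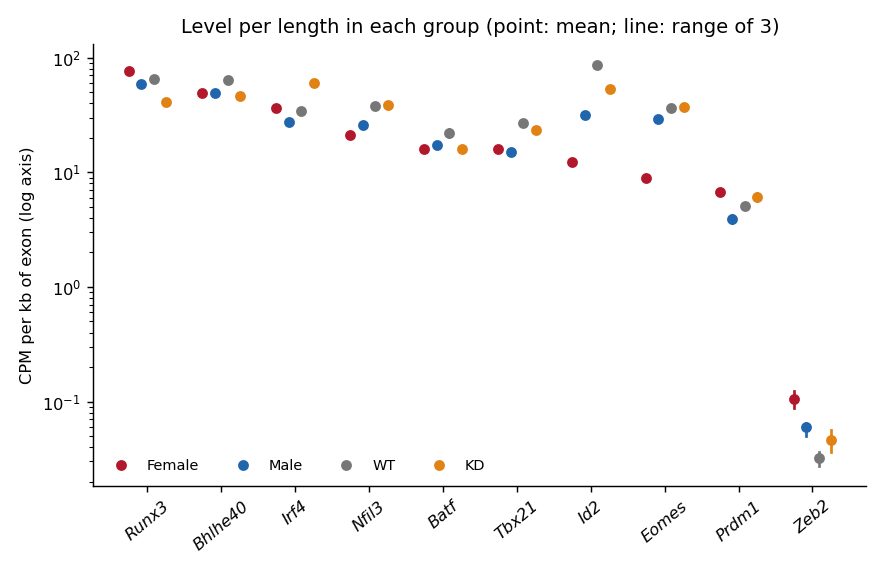
Level of each factor per length: the vertical axis is CPM per kb of exon on a log scale, points are group means and lines the range of 3 samples. Id2 and Eomes climb from the seventh and eighth place in Female, at 12.3 and 8.99, to 31.9 and 28.9 in Male, and Zeb2 lies far below the rest in every group.

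In the electroporated cells Id2 was the most abundant factor per length in WT, at 85.8 CPM per kb ± 2.38 (SD, n = 3), ahead of Runx3 (65.5) and Bhlhe40 (63.9), whose ranges overlapped. In KD Irf4 came first at 59.9 CPM per kb ± 0.237 (SD, n = 3), ahead of Id2 at 53.8, Bhlhe40 at 46.3 and Runx3 at 41.1. The exon length of Zeb2 joins many alternative exons, so that its level per length is a low estimate, but its counts were also few, from 53 to 234 per library against at least 1799 for each other member. Replicates of a group lay close together. The SD was 0.396% to 8.70% of the mean for the 9 members other than Zeb2 and 13.6% to 21.5% for Zeb2.

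Male and Female cells were compared to ask how sex is linked to these factors after activation. Eomes and Id2 were higher in Male by 3.22-fold and 2.60-fold in mean CPM, and Nfil3 by 1.21-fold. Prdm1, Zeb2, Irf4 and Runx3 were lower in Male, by 1.74-fold, 1.78-fold, 1.31-fold and 1.29-fold, and Tbx21 was lower by 1.07-fold. In total 8 of the 10 factors were called, 3 higher and 5 lower in Male, at a Benjamini-Hochberg adjusted p under 0.05 in edgeR's quasi-likelihood test. Over all 20208 genes tested, 49.8% were called, 23.5% higher and 26.3% lower. The groups did not overlap for 9 of the 10 factors, against 58.3% of genes, and Eomes and Id2 were the 2 called with a change of at least 1 log2 unit, against 7.28% of genes. The factors had a median absolute log2 fold change of 0.38, against 0.33 for all genes, and a signed median of -0.05 against 0.01.

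KD and WT were compared to ask what changes with the Kdm5d guide and Cas9. Irf4 and Prdm1 were higher in KD, by 1.74-fold and 1.21-fold in mean CPM. Runx3, Id2, Batf, Bhlhe40 and Tbx21 were lower in KD, by 1.60-fold, 1.60-fold, 1.39-fold, 1.38-fold and 1.14-fold. In total 7 of 10 factors were called, 2 higher and 5 lower, where 35.1% of 20413 genes were called, 16.8% higher and 18.4% lower. With upper-quartile scaling the split over all genes turned from 3424 higher and 3747 lower to 4002 and 3279, while the factors stayed at 2 and 5. The groups did not overlap for 8 of the 10, against 46.8% of genes, and 0 were called with a change of at least 1 log2 unit, against 3.96% of genes. The median absolute log2 fold change of the factors was 0.47, against 0.21 for all genes, and their signed median was -0.08 against 0.01.

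**Figure D2:**
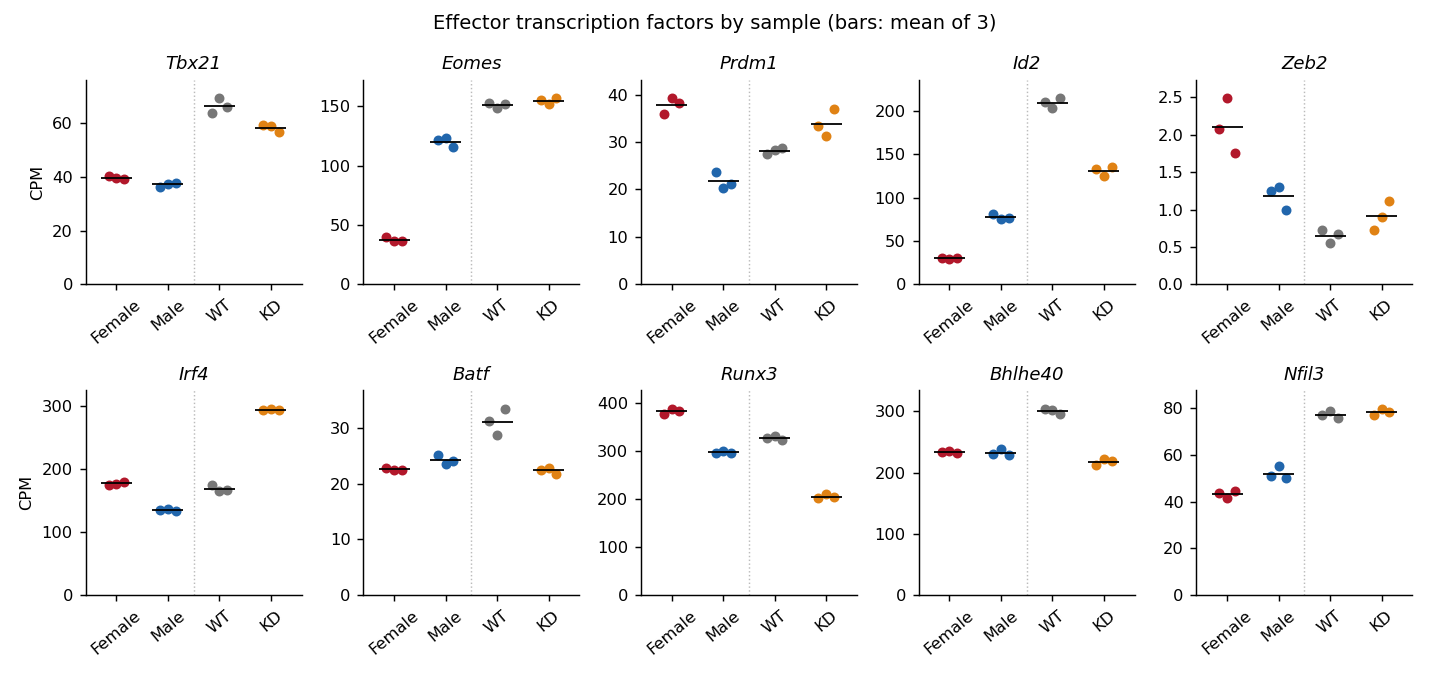
CPM of each factor in each of the 12 samples, with a linear vertical axis from 0 in each panel, points for samples and bars for group means; the dotted line parts the 2 count tables. Eomes and Id2 separate Male from Female most clearly. Irf4, Runx3 and Id2 are among the factors that separate KD from WT, while Eomes and Nfil3 overlap between KD and WT.

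The comparisons share no sample, and 5 of the 10 factors were called in both, against 25.7% of the 19529 genes tested in both. Directions were opposite for 3 of 10, against 14.1% of genes: Prdm1 and Irf4 were below Female in Male but above WT in KD. Id2 had the reverse pattern (up in Male, down in KD), which 7.33% of genes had. Tbx21 and Runx3 were lower in Male and lower in KD. The other 5 were called in 1 comparison: Eomes, Zeb2 and Nfil3 between Male and Female, Batf and Bhlhe40 between KD and WT. That a factor passed the threshold in a single comparison was not tested as a difference between the comparisons.

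**Figure D3:**
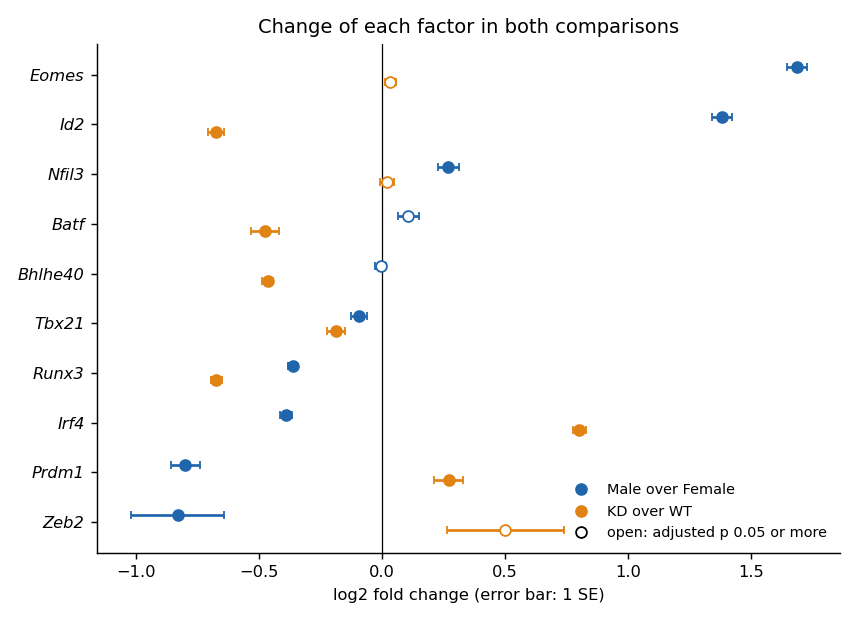
Log2 fold change of each factor with 1 SE, Male over Female and KD over WT; filled points passed an adjusted p of 0.05. Eomes is at 1.69 and 0.03, Id2 at 1.38 and -0.67, and Irf4 at -0.39 and 0.80.

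The T-box factors had unlike values in Male. Eomes (ENSMUSG00000032446, chromosome 9, 118478212 to 118486132, GRCm38) supports memory and cytotoxic genes and is close in sequence to T-bet. It was at 39.5, 36.2 and 36.3 CPM in the Female samples and at 122, 123 and 116 CPM in the Male samples. Every Male sample was above every Female sample, at a log2 difference of 1.69 (SE 0.039; edgeR adjusted p 3.47e-10), an absolute change beyond that of 97.5% of genes tested. Eomes in WT was at 152, 149 and 152 CPM and in KD at 155, 152 and 157 CPM. Those groups overlapped, at a log2 difference of 0.03 (SE 0.024; edgeR adjusted p 0.321). An antisense gene, Gm33460, overlaps Eomes by 118 exon bases, and its mean was 0.716 (Female) and 0.924 CPM (Male). The use of strand in counting is not given, so reads of a gene and its antisense partner cannot be told apart.

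Tbx21 (ENSMUSG00000001444, chromosome 11, 97098071 to 97115331) encodes T-bet, the factor named for T-box expression in T cells, which activates interferon gamma. It was at 40.5, 39.6 and 39.1 CPM in Female and at 36.4, 37.4 and 37.8 CPM in Male, groups that did not overlap but lay close. The log2 fold change was -0.09 (SE 0.033, edgeR adjusted p 0.038). This call was lost in 3 of 8 other settings and without any of Female replicates 1, 2 and 3 or Male replicate 1, with adjusted p between 0.022 and 0.092 over settings and left-out replicates together. Tbx21 in WT was at 63.9, 69.3 and 66.3 CPM and in KD at 59.4, 59.2 and 56.7 CPM, each KD sample below each WT sample (log2 fold change -0.19, SE 0.038, adjusted p 0.0032 by edgeR).

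The balance of both T-box factors was read within each library, where scaling between libraries has no effect. In Female the log2 ratio of Tbx21 to Eomes counts was 0.09 ± 0.05 (SD, n = 3), that is, near equal counts, and in Male it was -1.69 ± 0.07 (SD, n = 3). The difference was -1.78 on the log2 scale, or 3.44-fold, with an exact two-sided permutation p of 0.1, the smallest that 3 against 3 samples allow. It was -1.18 ± 0.08 in WT and -1.40 ± 0.06 in KD (SD, n = 3), a difference of -0.22 with an exact p of 0.1. For each of the 10 ratio comparisons made here the groups did not overlap and the exact p was 0.1, so that a Benjamini-Hochberg adjustment over them leaves 0.1.

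**Figure D4:**
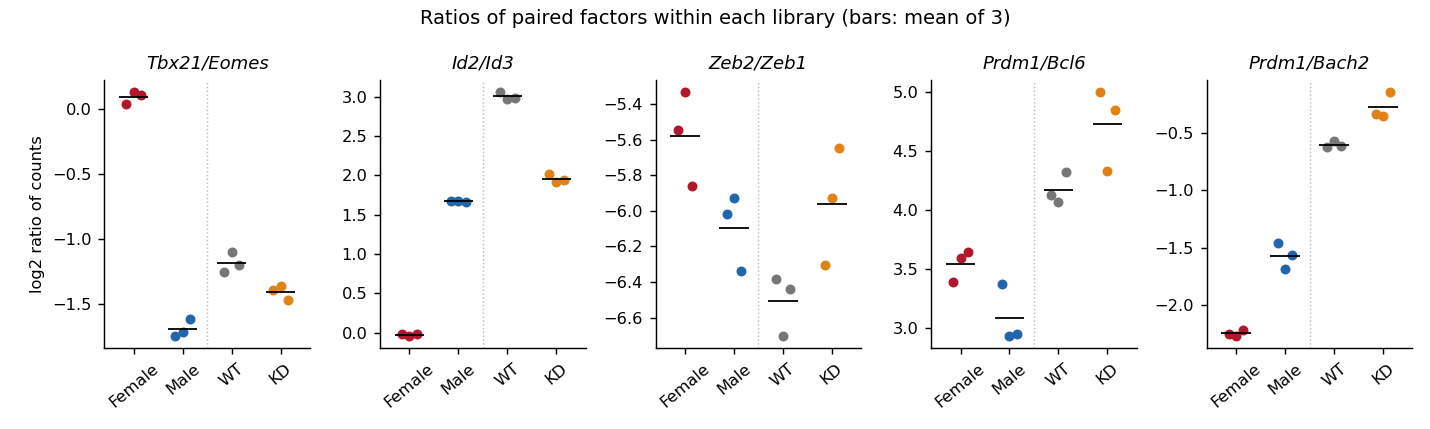
Log2 ratio of counts of paired factors in each library; points are samples, bars are group means, and each panel has its own axis. Tbx21 to Eomes averages 0.09 in Female and -1.69 in Male, and Id2 to Id3 averages -0.02 and 1.67 there and 3.01 and 1.95 in WT and KD.

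Id2 (ENSMUSG00000020644, chromosome 12, 25093799 to 25097140) encodes a helix-loop-helix protein without a DNA-binding region, which traps E proteins and so blocks factors that keep T cells naive or memory-like. It was at 30.5, 28.7 and 30.4 CPM in Female and at 81.4, 75.0 and 76.8 CPM in Male. The Male samples were well above the Female samples, at a log2 difference of 1.38 (SE 0.040; edgeR adjusted p 1.43e-09), beyond 95.6% of genes in absolute size. Id2 in WT was at 210.1, 203 and 215 CPM and in KD at 133, 125 and 135 CPM. The KD samples were all below the WT samples and above the Male samples of the other table (log2 fold change -0.67, SE 0.033, adjusted p 2.02e-07 by edgeR). The tables were separate experiments and levels were not tested across them.

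The relatives and targets of Id2 were read beside it. Id3, the inhibitor tied to memory cells, was below Female in Male (30.4 to 24.4 CPM, log2 fold change -0.32, edgeR adjusted p 0.00013) and higher in KD (26.0 to 33.8 CPM, 0.38, edgeR adjusted p 9.36e-05), opposite to Id2 each time. The log2 ratio of Id2 to Id3 was -0.02 in Female and 1.67 in Male, 3.01 in WT and 1.95 in KD, which are differences of 1.70 and -1.05. Id1 was near 0, at 0.239 and 0.200 CPM in Female and Male, and Id4 had 0 counts. Of the E proteins, named after their values were seen, Tcf3 was lower in Male (-0.40) and in KD (-0.12), and Tcf12 was lower in Male (-0.64) and had a log2 fold change of -0.04 in KD (edgeR adjusted p 0.245).

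Irf4 (ENSMUSG00000021356, chromosome 13, 30749226 to 30766976) is induced in proportion to T cell receptor signal strength and sustains expansion. It was at 174, 177 and 179.7 CPM in Female and at 135, 137 and 133 CPM in Male, lower in every Male sample (log2 fold change -0.39, SE 0.023, adjusted p 2.48e-07 by edgeR). Irf4 in WT was at 175, 165 and 166 CPM and in KD at 293, 295 and 293 CPM. The KD samples lay within 3 CPM of each other and far above WT, at a log2 difference of 0.80 (SE 0.025; edgeR adjusted p 8.74e-09), beyond 90.4% of genes.

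Batf (ENSMUSG00000034266, chromosome 12, 85686669 to 85709087) encodes the small AP-1 factor that binds beside Irf4. It was at 22.9, 22.4 and 22.4 CPM in Female and at 25.2, 23.6 and 24.1 CPM in Male. These samples did not overlap, but the log2 fold change of 0.11 (SE 0.042) had an edgeR adjusted p of 0.058, which ran from 0.024 to 0.225 over the other settings and left-out replicates. Batf in WT was at 31.3, 28.8 and 33.4 CPM and in KD at 22.5, 22.9 and 21.8 CPM, lower in each KD sample (log2 fold change -0.48, SE 0.055, adjusted p 8.15e-05 by edgeR). Irf4 and its partner Batf were thus called in opposite directions in KD. Batf3, a close relative, was lower in Male (25.6 to 17.7 CPM, -0.54, edgeR adjusted p 1.45e-05) and higher in KD (5.88 to 9.96 CPM, 0.76, edgeR adjusted p 7.12e-05), the directions of Irf4. Irf8, a close relative of Irf4, was higher in Male (42.7 to 94.9 CPM, 1.15, edgeR adjusted p 1.41e-09) and was at 208 and 215 CPM in WT and KD (0.04, edgeR adjusted p 0.165).

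Prdm1 (ENSMUSG00000038151, chromosome 10, 44437177 to 44528501) encodes Blimp-1, a zinc finger repressor of the memory programme that Irf4 and Batf can induce. It was at 35.9, 39.2 and 38.2 CPM in Female and at 23.6, 20.3 and 21.2 CPM in Male, lower in every Male sample (log2 fold change -0.80, SE 0.059, adjusted p 1.30e-06 by edgeR). Prdm1 in WT was at 27.4, 28.3 and 28.7 CPM and in KD at 33.4, 31.2 and 37.1 CPM, higher in every KD sample (log2 fold change 0.27, SE 0.059, adjusted p 0.0051 by edgeR). Its direction was that of Irf4 in both comparisons.

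The antagonists of Blimp-1 gave ratios that depended on the partner. Bcl6, which Blimp-1 represses and which represses Prdm1 in turn, was low, at 3.24 CPM in Female and 2.56 in Male (log2 fold change -0.34, edgeR adjusted p 0.051), and at 1.56 in WT and 1.29 in KD (-0.27, edgeR adjusted p 0.323). The log2 ratio of Prdm1 to Bcl6 was 3.54 ± 0.13 (Female), 3.08 ± 0.25 (Male), 4.17 ± 0.13 (WT) and 4.73 ± 0.35 (KD; SD, n = 3 each). Bach2, a repressor that keeps cells from effector differentiation, was lower in Male, from 179 to 64.3 CPM (log2 fold change -1.48, edgeR adjusted p 4.86e-10), and was at 42.8 and 41.0 CPM in WT and KD (-0.06, edgeR adjusted p 0.254). The log2 ratio of Prdm1 to Bach2 was -2.25 ± 0.03 (Female), -1.57 ± 0.12 (Male), -0.60 ± 0.03 (WT) and -0.28 ± 0.12 (KD; SD, n = 3 each), above Female in each Male sample although Prdm1 itself was lower there.

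Zeb2 (ENSMUSG00000026872, chromosome 2, 44983632 to 45117395) acts below T-bet in terminal effector cells. It was at 2.08, 2.49 and 1.76 CPM in Female and at 1.25, 1.31 and 0.995 CPM in Male, lower in every Male sample (log2 fold change -0.83, SE 0.189, adjusted p 0.0042 by edgeR). Zeb2 in WT was at 0.722, 0.550 and 0.670 CPM and in KD at 0.725, 0.903 and 1.119 CPM, a log2 fold change of 0.50 (SE 0.236) that did not pass the threshold (edgeR adjusted p 0.136). The KD samples were above the WT samples by a margin of 0.725 against 0.722 CPM. Zeb1, its memory-linked relative, averaged 100.1 CPM (Female) and 80.7 (Male) (log2 fold change -0.31, edgeR adjusted p 4.07e-06), and the log2 ratio of Zeb2 to Zeb1 was -5.58 and -6.09 there, so Zeb1 held most counts of the pair. The antisense gene Zeb2os, which overlaps Zeb2, had 0 counts in Female, Male and WT and a mean of 0.0042 CPM in KD.

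Runx3 (ENSMUSG00000070691, chromosome 4, 135120652 to 135177990) sets CD8 lineage identity and works with T-box factors at cytotoxic genes. It was at 378, 388 and 383 CPM in Female and at 296, 301 and 296 CPM in Male, lower in each Male sample (log2 fold change -0.36, SE 0.019, adjusted p 1.04e-07 by edgeR). In WT it was at 328, 332 and 323 CPM and in KD at 201, 211 and 204 CPM, again without overlap (log2 fold change -0.67, SE 0.023, adjusted p 1.55e-08 by edgeR). The other Runx genes went the same way. Runx1 was below Female in Male (-0.47, edgeR adjusted p 1.43e-05) and fell from 9.09 to 3.96 CPM in KD (-1.20, edgeR adjusted p 2.88e-06). Runx2 was lower in Male (-0.36, edgeR adjusted p 1.99e-05) and in KD (-0.43, edgeR adjusted p 3.37e-05). Their shared binding partner Cbfb was at 209 (Female) and 211 CPM (Male) (0.01, edgeR adjusted p 0.775) and was higher in KD (261 to 287 CPM, 0.14, edgeR adjusted p 0.00098). An antisense gene at the Runx3 locus, Gm16224, which shares no exon base with it, had log2 fold changes of 0.69 (Male, called) and -0.43 (KD, called).

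Bhlhe40 (ENSMUSG00000030103, chromosome 6, 108660629 to 108666925) represses Il10 and supports cytokine output. It was at 234, 235 and 231 CPM in Female and at 231, 238 and 228 CPM in Male, groups that overlapped, at a log2 difference of -0.01 (SE 0.022; edgeR adjusted p 0.843). Bhlhe40 in WT was at 304, 302 and 296 CPM and in KD at 213, 222 and 219 CPM, lower in each KD sample (log2 fold change -0.46, SE 0.023, adjusted p 1.88e-07 by edgeR). Its relative Bhlhe41 was low, at means of 0.351, 0.213, 0.110 and 0.0817 CPM in Female, Male, WT and KD. Nfil3 (ENSMUSG00000056749, chromosome 13, 52967209 to 52981073) encodes a basic leucine zipper repressor that represses through the sites of the PAR factors Dbp, Hlf and Tef. It was at 43.6, 41.5 and 44.6 CPM in Female and at 50.8, 55.2 and 50.2 CPM in Male, higher in each Male sample (log2 fold change 0.27, SE 0.044, adjusted p 0.00047 by edgeR). In WT it was at 77.0, 79.1 and 76.0 CPM and in KD at 77.2, 79.7 and 78.3 CPM, which overlapped (0.02, SE 0.029, edgeR adjusted p 0.654).

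Levels of the batch without electroporation and of the electroporated batch were set side by side for the male controls. No test was made, because batch and electroporation cannot be told apart. CPM was scaled within each count table and not across both, which limits small ratios most. Of the 10 factors, 9 had a higher mean CPM in WT than in Male, from 1.101-fold for Runx3 to 2.69-fold for Id2, and Zeb2 was at 0.647 CPM in WT against 1.18 in Male. Of the 19529 genes tested in both tables, 45.7% had a higher mean in WT than in Male. Id2 was 2.69-fold, Tbx21 1.79-fold and Nfil3 1.48-fold higher in WT, and Zeb2 was 1.83-fold lower. Each of these gaps is larger than that gene's difference between Male and Female or between KD and WT. The margin was small for Id2 and Zeb2, which differed 2.60-fold and 1.78-fold between Male and Female.

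Among 9365 other genes whose mean log2 CPM reached 3 in both tables, those with the profile nearest to a factor were found from log2 CPM centred on each table's mean over 12 samples. For Irf4 they were Slc19a2 and Tgfbr3, with root mean square differences of 0.026 and 0.059 log2 units, and for Runx3 they were Sidt1 and Ikzf3 at 0.028 and 0.029. For Id2 they were Samd9l and Ppp1r3b at 0.063 and 0.067, and for Prdm1 Gid4 and Fam102b at 0.065 and 0.067. Slc19a2 had log2 fold changes of -0.41 in Male and 0.82 in KD, Ikzf3 of -0.33 and -0.68, and Samd9l of 1.52 and -0.72.

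Factors that oppose effector differentiation were lower in Male almost throughout. Of 12 listed genes tested, 11 were called lower and 0 higher in Male (26.3% and 23.5% of all genes), with a median log2 fold change of -0.53 against 0.01 for all genes. They included Bach2 (above), Tcf7, which keeps T cells stem-like (-1.45), Klf2, which keeps them quiescent and circulating (-1.38), and Lef1, the relative of Tcf7 (-0.85). In KD 4 were higher and 2 lower (16.8% and 18.4% of all genes), with a median of -0.04: Tcf7 rose from 64.9 to 79.8 CPM (0.30) and Myb by 0.31, while Foxo1, an activator of Tcf7, fell by 0.26 on the log2 scale.

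Partners of Batf and Irf4 were mixed in Male and mostly lower in KD. Of 13 AP-1, NFAT and related factors tested, 6 were higher and 5 lower in Male (all genes: 23.5% and 26.3%), and 1 was higher and 8 lower in KD (all genes: 16.8% and 18.4%). Fosl2, a relative of Fos, had a log2 fold change of -0.07 in Male (edgeR adjusted p 0.061) and fell from 247 to 138 CPM in KD (-0.84, edgeR adjusted p 3.83e-09). Jund fell from 637 to 420 CPM in KD (-0.60), and Jun was the listed partner that rose (97.9 to 129 CPM, 0.40). In Male, Ets1 (-0.57) and Nfatc3 (-0.52) were lower and Nfatc2 (0.41) was higher. Of the STATs, which relay cytokine signals, Stat5b was lower in Male (-0.60), and Stat4, which relays interleukin 12, fell from 149 CPM in WT to 94.5 CPM in KD (-0.66).

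Genes that T-bet, Eomes or Runx3 activate were mostly higher in Male and lower in KD. Of 18 tested of 19 listed, 10 were higher and 4 lower in Male (all genes: 23.5% and 26.3%), with a median of 0.47 on the log2 scale. Among the same genes in KD, 2 were higher and 12 lower (all genes: 16.8% and 18.4%), with a median of -0.46. Gzmb, encoding granzyme B, had log2 fold changes of 1.21 in Male and -0.88 in KD, Prf1, encoding perforin, of 2.24 and -1.21, and Fasl, encoding a death ligand, of 0.86 and -1.22. Il2rb, the interleukin 2 receptor beta chain, was at 0.75 and -0.56, and Ccl5 at 0.77 and -1.96. In Male these genes were higher while Eomes was higher (1.69) and Tbx21 (-0.09) and Runx3 (-0.36) were lower. In KD they were lower while Eomes was not called and Tbx21 and Runx3 were lower. Whether any of these factors accounts for the changes was not tested. The list was chosen with earlier results of these data known, so its direction is not independent evidence.

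**Figure D5:**
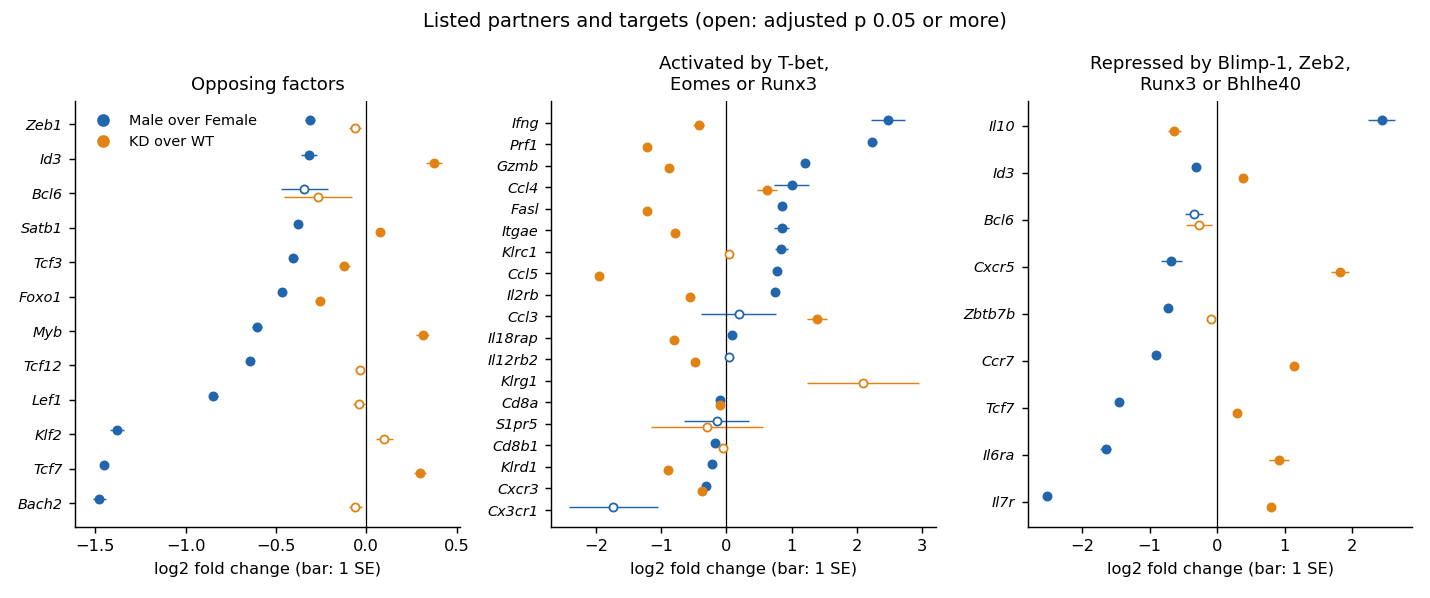
Log2 fold change with 1 SE of listed genes, Male over Female and KD over WT, in 3 lists: factors that oppose effector differentiation, genes activated by T-bet, Eomes or Runx3, and genes repressed by Blimp-1, Zeb2, Runx3 or Bhlhe40; filled points passed an adjusted p of 0.05. Opposing factors lie left of 0 in Male, and Gzmb, Prf1, Fasl and Ccl5 lie right of 0 in Male and left in KD; Cd4, with 0 counts in Male, and 2 other listed genes are not drawn.

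Genes that Blimp-1, Zeb2, Runx3 or Bhlhe40 repress went the other way. Of 11 tested of 12 listed, 8 were lower and 2 higher in Male (all genes: 26.3% and 23.5%), with a median of -0.72. Of 10 tested in KD, 7 were higher and 1 lower (all genes: 16.8% and 18.4%), with a median of 0.59. Il7r, the interleukin 7 receptor of resting and memory cells, was at -2.51 in Male and 0.80 in KD, and Ccr7, a lymph node homing receptor, at -0.91 and 1.15. Tcf7, Bcl6 and Id3 stand in this list and in that of opposing factors. Il10, which Bhlhe40 represses, rose from 0.958 to 5.22 CPM in Male, where Bhlhe40 was not called, and fell from 6.38 to 4.11 CPM in KD, where Bhlhe40 was lower.

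Genes that Batf and Irf4 activate divided. Of 11 tested, Prdm1 among them, 4 were higher and 4 lower in Male, 8 in all where 49.8% of all genes were called. In KD 3 were higher and 7 lower, 10 in all where 35.1% of all genes were called. Ctla4, an inhibitory receptor, was at -1.52 in Male and 0.42 in KD and Icos, a costimulatory receptor, at -0.62 and 0.21, the directions of Irf4. Hk2, the first enzyme of glycolysis, was at 1.42 and -0.38, Havcr2, an inhibitory receptor, at 0.56 and -1.49 (its call in Male was lost without the low-count filter and without Female replicate 2 or 3 or Male replicate 2), and Il12rb2 at 0.04 (not called) and -0.49. Genes that respond directly to T cell receptor signals, a list that holds Irf4, also split: 4 of 10 were higher and 3 lower in Male, where 49.8% of all genes were called in either direction, and 5 higher and 3 lower in KD, where 35.1% were. Cd69 was at 1.05 in Male and -0.93 in KD and Tnfrsf9 at 0.42 and -0.48, opposite to Irf4, while Egr3 had a log2 fold change of 1.55 in KD. Of 17 tested family relatives, 1 was higher and 11 lower in Male (all genes: 23.5% and 26.3%), with a median of -0.32. Of 16 tested in KD, 9 were higher and 2 lower (all genes: 16.8% and 18.4%), with a median of 0.18.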

How the data were processed

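The values are whole-number counts by gene in 2 tables that the authors deposited, with 6 samples each. The submitters' processing notes name bcl2fastq 2.20.0, HISAT2, StringTie, DESeq2 and mm10, without roles. Libraries were made with a stranded kit after ribosomal RNA depletion, per the labels' protocols. The annotation and the use of strand in counting are not given in the sources used here. Identifiers were matched to GENCODE M21 (GRCm38), which left 260 of 55487 unmatched. At most 1.60% of the 31-base words of a factor's transcripts occurred in another gene.

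Each table was fitted on its 6 samples over all genes with edgeR 4.0.16 in R 4.3.3 (TMM, filterByExpr, quasi-likelihood test, Benjamini-Hochberg adjustment, threshold 0.05), with DESeq2 1.42.0 and limma 3.58.1 voom as alternatives. The fit was run on simulated counts with known changes, as a check of the code. Those counts had a single fixed spread setting, so they do not measure false calls in the real data. Standard errors are the absolute log2 fold change over the square root of F. Ratios used counts plus 0.5. Factors and lists were chosen with earlier results of these data known. The rule for named genes took the 10 factors, 10 fixed relatives and antagonists, up to 4 called genes with the smallest p per list and comparison, and the 2 nearest profiles of each factor called in both comparisons and changed by 0.5 log2 units or more in either. Promoter windows were limited to the 250 bases before a start, fewer than planned. Tcf3, Tcf12, Cbfb, Id4, Il10, antisense genes and markers were named after their values were seen. Some listed genes are not reported here.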

Additional observations from a re-analysis of the deposited data

How the results depend on the processing

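Each comparison was refitted with other normalizations, filters, tests and thresholds, with counts divided by 4, and without each replicate. For genes other than the 10 factors these refits were chosen after seeing the data. With a minimum change of 1.5-fold (glmTreat), 1640 genes and 3 factors were called between Male and Female and 533 genes and 2 factors between KD and WT; fewer genes can pass such a test by construction. Without 1 replicate, 9190 to 9399 genes and 7 to 8 factors were called between Male and Female, and 6073 to 6685 genes and 7 factors between KD and WT. Between Male and Female, Bhlhe40 turned to 0.0079 (log2) with at least 50 counts in 3 samples and to 0.00067 with counts divided by 4, and Cbfb to -0.0050 without the low-count filter. Without 1 replicate, Bhlhe40 ran from -0.031 to 0.0058, Cbfb from -0.0070 to 0.0196 and Id1 from -0.51 to 0.30; the cause was not tested. Batf between Male and Female was called with the 50-count filter and with counts divided by 4. In at least 1 other setting Bcl6, Fosl2 and Il12rb2 were also called between Male and Female, and Irf8 between KD and WT. Tbx21 between Male and Female was not called with DESeq2, with the 50-count filter or with the replicate block. The block left 9740 and 6688 genes and 7 and 7 factors called. Replicate numbers come from the titles and nothing states that they pair samples. The mean correlation of same-numbered deviations was -0.011 for Male and Female and -0.012 for KD and WT. The differences in log2 ratio for Tbx21 to Eomes ran from -1.82 to -1.75 and from -0.26 to -0.18 without 1 replicate, and for Id2 to Id3 from 1.69 to 1.70 and from -1.08 to -1.02. For Zeb2 to Zeb1 they ran from -0.66 to -0.39 and from 0.39 to 0.72, for Prdm1 to Bcl6 from -0.60 to -0.38 and from 0.42 to 0.75, and for Prdm1 to Bach2 from 0.62 to 0.74 and from 0.26 to 0.37. Zeb2, at 53 to 234 counts, is the factor that depth limits most.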
